A study of Homo sapiens with 10 samples.

Results

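The genes described here are those through which cells limit and read out signalling by the kinase ERK: the dual-specificity phosphatases DUSP1, DUSP2, DUSP5 and DUSP6, the Sprouty inhibitors SPRY1 and SPRY2, the transcription factor genes EGR1, ETV5 and FOS, and MAPK3, which encodes the kinase ERK1. Their signals come from all probe sets that the platform annotation assigns to 1 of these 10 genes, which gave 12 probe sets of 12558 tested. FOS had 3 probe sets and each of the other 9 genes had 1. They were measured on Affymetrix oligonucleotide arrays in a subline of a human chronic myeloid leukaemia cell line that is resistant to cyclophosphamide (5 arrays) and in its sensitive parent line (5 arrays). Both were grown in culture medium, with no drug treatment given in the labels, and neither the name of the line nor the way resistance was raised is given there. The subline is 1 line, and the labels do not tell whether replicates are separate cultures. The p-values therefore cover only the variation among these arrays, part or all of which may be technical.

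Chronic myeloid leukaemia is driven by BCR-ABL, a fusion tyrosine kinase that signals through RAS, the kinases RAF and MEK, and ERK. Active ERK enters the nucleus and switches on genes within minutes, among them FOS and EGR1, and it also induces its own inhibitors, so that DUSP6 and Sprouty transcripts and those of PEA3-type ETS factors such as ETV5 are widely used as readouts of the pathway. DUSP proteins remove the activating phosphates from ERK and related kinases, and Sprouty proteins act further up, between receptor or adaptor and RAF.

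Of the 10 genes, 8 had an entry in the RefSeq promoter table of GRCh38.p14, and DUSP5 and ETV5 had none. The 250 bases before the annotated start are printed for the gene with the largest difference between the lines and for 3 immediate early genes that serve as its contrast below, 5′ to 3′ on the gene's strand. The windows are chr12:89352502-89352751 (minus strand) for DUSP6, chr5:172771196-172771445 (minus strand) for DUSP1, chr5:138465229-138465478 (plus strand) for EGR1 and chr14:75278578-75278827 (plus strand) for FOS. Capitals mark, on either strand, GGAA (the core that ETS factors bind) in DUSP6, TGACGTCA (the cyclic AMP response element) and TATAAA in DUSP1, the CArG box that serum response factor binds in EGR1, and TATAAA in FOS. 
DUSP6: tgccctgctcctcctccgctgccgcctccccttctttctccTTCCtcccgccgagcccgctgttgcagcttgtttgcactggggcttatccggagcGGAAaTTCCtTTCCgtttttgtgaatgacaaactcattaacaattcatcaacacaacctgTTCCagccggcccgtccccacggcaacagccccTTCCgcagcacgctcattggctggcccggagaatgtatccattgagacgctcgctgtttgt
DUSP1: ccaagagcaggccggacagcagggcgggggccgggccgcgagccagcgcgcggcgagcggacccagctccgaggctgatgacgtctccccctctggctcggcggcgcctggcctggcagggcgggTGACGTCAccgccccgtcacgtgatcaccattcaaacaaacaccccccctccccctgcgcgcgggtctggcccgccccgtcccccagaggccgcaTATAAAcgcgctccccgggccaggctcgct
EGR1: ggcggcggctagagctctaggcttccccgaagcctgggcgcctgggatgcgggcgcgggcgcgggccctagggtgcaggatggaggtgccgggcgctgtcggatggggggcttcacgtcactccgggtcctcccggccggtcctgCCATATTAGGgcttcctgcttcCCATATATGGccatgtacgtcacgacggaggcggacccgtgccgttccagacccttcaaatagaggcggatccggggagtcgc
FOS: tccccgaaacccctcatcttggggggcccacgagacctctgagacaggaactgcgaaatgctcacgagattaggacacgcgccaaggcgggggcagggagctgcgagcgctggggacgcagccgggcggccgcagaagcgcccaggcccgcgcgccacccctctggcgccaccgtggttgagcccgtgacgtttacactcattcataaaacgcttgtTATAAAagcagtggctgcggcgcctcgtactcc
The DUSP6 window held 6 matches to GGAA, a number reached in 9.14% of the 35116 windows of the same length in the table, while 92.7% of the windows held at least 1. GGAA is not marked in the other printed windows, where it had 4 matches in EGR1, 1 in FOS and 0 in DUSP1. Of the members not printed, DUSP2 had 4 matches and MAPK3 had 1. The SPRY1 windows had 5 and 4, and the SPRY2 windows had 3, 4 and 4. GGAA was thus not particular to DUSP6. The EGR1 window held 2 CArG boxes, and 1.16% of all windows held 1 or more. TGACGTCA was present in 1.65% and TATAAA in 10.7% of all windows. No marked match overlapped another, and these are matches of letters, not measured binding sites.

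Signals are linear MAS5 intensities. They are compared below only within a probe set. Each array has a background limit, the 95th percentile of 32 control probe sets without a human target, which lay between 319.7 and 739.8 on resistant arrays and between 360.8 and 640 on sensitive arrays. A probe set was called at a Benjamini-Hochberg adjusted p under 0.05 in limma over all 12558 probe sets, on log2(signal + 114.8), a scale that understates the change of dim probe sets. The share of probe sets above the limit ranged from 50.96% to 61.28% on resistant arrays and from 52.72% to 59.14% on sensitive arrays. The leukocyte gene PTPRC was above the limit on all 10 arrays, whereas the fibroblast genes COL1A2 and COL3A1 and the epithelial genes KRT18, KRT19 and EPCAM were above it on 0 arrays. COL1A1 of the fibroblast list was above it on 0 resistant arrays and 1 sensitive array, and CDH1 of the epithelial list on 2 resistant and 3 sensitive arrays. KRT8, also an epithelial marker, was above it on all 10. Some lineage markers differed between the lines. The erythroid factor KLF1 and the platelet integrin ITGA2B were called higher in resistant cells (log2 differences 2.87 and 3.40 in limma). The granulocyte receptor CSF3R was called lower (-1.61). The other 6 measured of the 9 myeloid, erythroid and megakaryocytic markers were not called: PTPRC, MPO, SPI1, GATA1, GP9 and PF4. The megakaryocytic genes GP9 and PF4 were above the limit on 0 arrays, with log2 differences of 0.23 and -0.03. GATA1 had a log2 difference of 1.49 with overlapping groups (limma adjusted p = 0.14). SPI1 had one of -1.07 without overlap (limma adjusted p = 0.0529). The part of this lineage difference in the results below was not tested.

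In resistant cells the ERK phosphatase gene DUSP6 had 4.78 times the mean signal of sensitive cells and the ETS factor gene ETV5 had 2.47 times, while 1 dim FOS probe set was lower. The other 9 probe sets, those of DUSP1, DUSP2, DUSP5, SPRY1, SPRY2, EGR1 and MAPK3 and the remaining 2 of FOS, were not called. In all, 2 of 12 probe sets were called higher and 1 of 12 lower, or 25%, against 7.41% of all probe sets tested, where the shares were 4.42% upward and 2.99% downward. These same 3 probe sets, again 25%, were the ones whose groups did not overlap, against 8.5% of all. The share of all probe sets includes many dim ones. Of the 12, 10 were above the background limit on at least 3 arrays of either group. Among all 7345 probe sets that met this rule, 11.5% were called. By gene, with each gene read through its brightest probe set, 2 of 10 were called, DUSP6 and ETV5, against 8.4% of 8226 genes. The median log2 difference of the 12 probe sets was -0.28, against 0.03 for all 12558. With so few probe sets the counts describe these genes and no more.

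**Figure D1:**
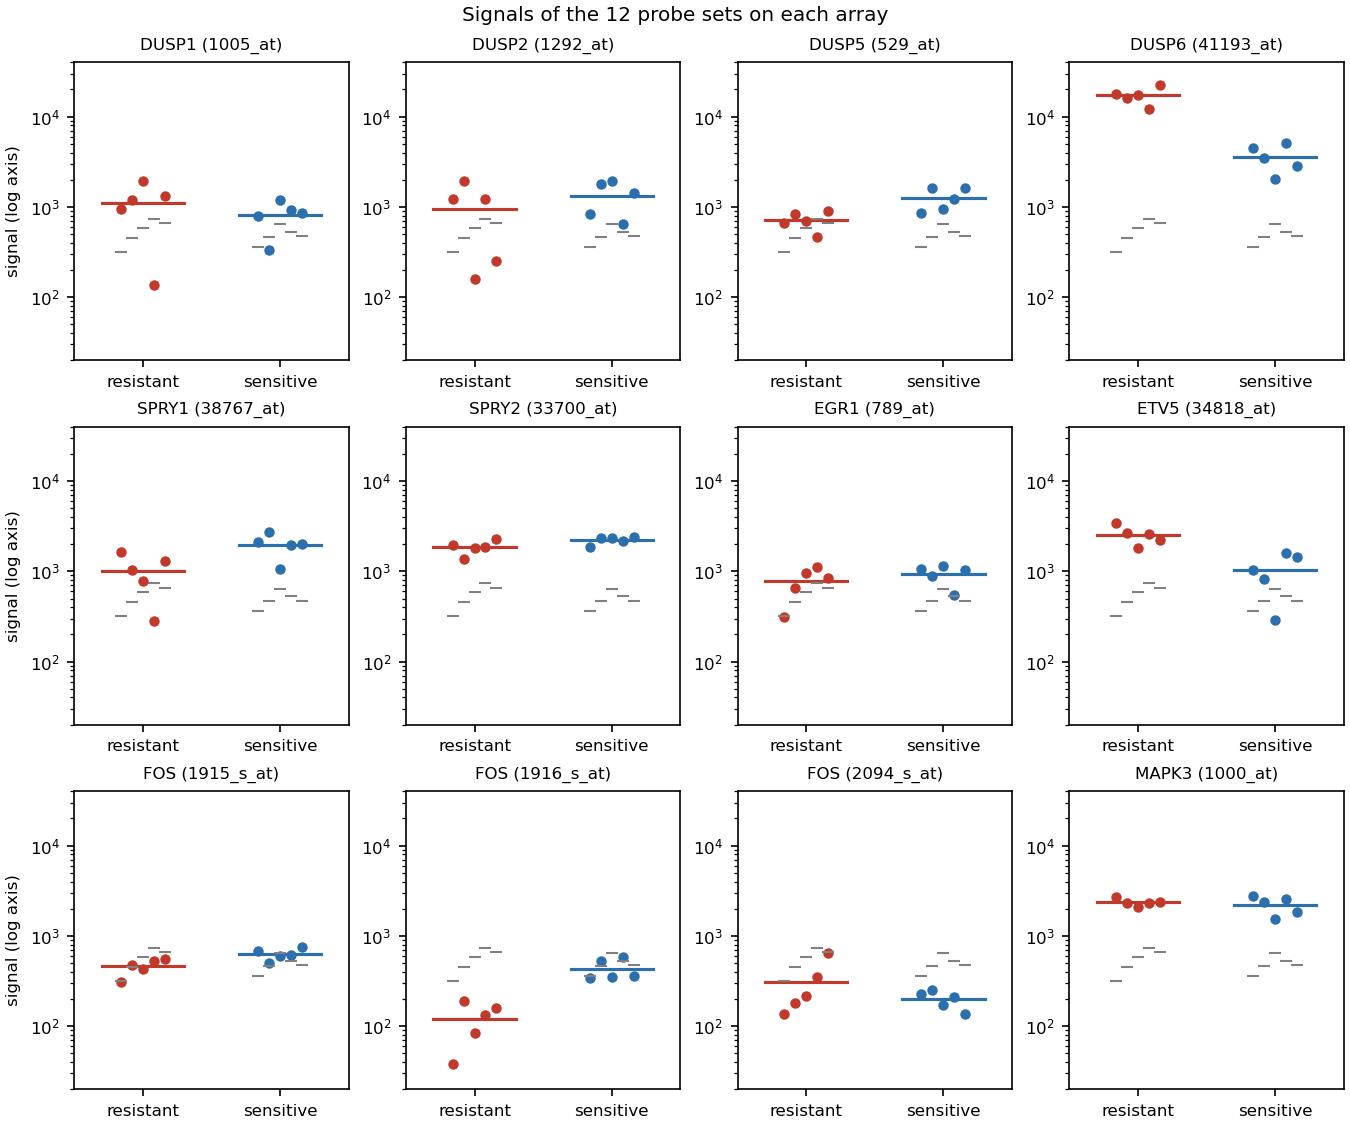
Signal of each of the 12 probe sets (log axis) on the 5 resistant arrays (red, left) and the 5 sensitive arrays (blue, right); horizontal lines are group means and short grey dashes are each array's background limit. DUSP6 and ETV5 on resistant arrays lie wholly above the sensitive arrays, FOS 1916_s_at lies wholly below them, and the other 9 panels overlap.

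Among the phosphatases, DUSP6, a cytoplasmic enzyme with high selectivity for ERK, was the member with the largest difference. Its signals were 17735, 15966, 17555, 12195 and 22369 on resistant arrays 1 to 5, against 4528, 3434, 2053, 5092 and 2865 on sensitive arrays 1 to 5. The lowest resistant array was above the highest sensitive array, and all 10 were far above the background limit. The means were 17164 ± 3664 and 3594 ± 1230 (SD, n = 5 each), a ratio of 4.78. The log2 difference was 2.26 (SE 0.26, 95% interval 1.69 to 2.83, limma adjusted p = 0.000149), which placed it 189th by size among the 12558 probe sets. It was called under all 18 alternatives tried, with log2 differences of 2.09 to 2.40.

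DUSP5, a nuclear phosphatase that also acts on ERK, lay the other way. Its signals were 668, 842, 692, 461 and 890 on resistant arrays, against 853, 1620, 951, 1222 and 1618 on sensitive arrays. The groups overlapped only in that 1 resistant array, the fifth, exceeded the lowest sensitive array. The fourth resistant array was below the background limit. The log2 difference was -0.71 (95% interval -1.22 to -0.21), which was not called over all probe sets (limma adjusted p = 0.1). The 2 ERK phosphatases therefore had intervals that did not meet. With dim probe sets left out of the test, DUSP5 was called lower (adjusted p = 0.0451).

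DUSP1 and DUSP2 varied too much between arrays for either direction to be read. DUSP1, which acts on the stress kinases p38 and JNK as well as on ERK, had signals of 954, 1179, 1946, 136 and 1333 on resistant arrays, against 785, 332, 1183, 929 and 865 on sensitive arrays. Its log2 difference of 0.19 had a 95% interval of -0.91 to 1.29 (limma adjusted p = 0.906), and it turned to -0.06 without sensitive replicate 2 and to -0.07 without resistant replicate 3. DUSP2, a nuclear phosphatase first known from haematopoietic cells, had signals of 1224, 1921, 157, 1229 and 250 on resistant arrays, against 833, 1769, 1923, 639 and 1425 on sensitive arrays. Resistant arrays 3 and 5 were below the background limit for DUSP2, and resistant array 4 was below it for DUSP1, so the low values of the 2 genes fell on different arrays. The DUSP2 log2 difference was -0.71 with an interval of -1.90 to 0.49 (limma adjusted p = 0.58), which holds a fall of more than 2-fold as well as a rise.

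Neither Sprouty gene was called. SPRY1 had signals of 1642, 1041, 774, 284 and 1315 on resistant arrays, against 2120, 2697, 1056, 1937 and 1986 on sensitive arrays. Without the third sensitive array the groups would not overlap, and the fourth resistant array was below the background limit. The means were 1011 ± 519 and 1959 ± 589 (SD, n = 5 each), and the log2 difference was -0.99 (95% interval -1.82 to -0.16, limma adjusted p = 0.173). SPRY2 was steadier, with signals of 1940, 1354, 1820, 1843 and 2305 on resistant arrays, against 1878, 2365, 2349, 2147 and 2407 on sensitive arrays. Its log2 difference was -0.27 (95% interval -0.66 to 0.13, adjusted p = 0.514), so a rise such as that of DUSP6 lay outside the intervals of both Sprouty genes.

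**Figure D2:**
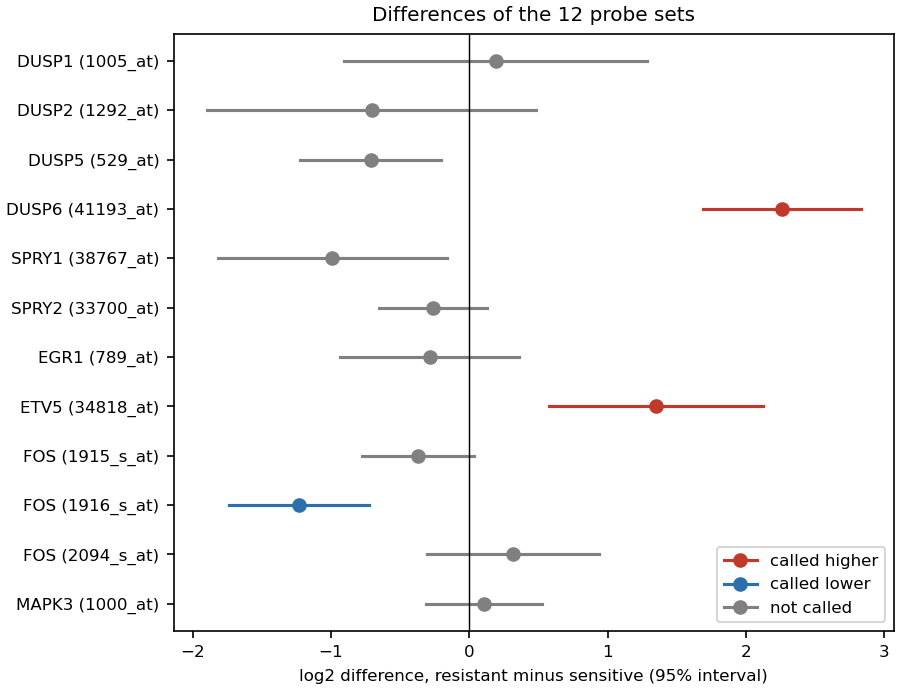
Log2 difference (resistant minus sensitive) of each of the 12 probe sets, with the 95% interval from limma; red is called higher, blue called lower and grey not called. DUSP6 at 2.26 and ETV5 at 1.35 stand to the right of 0, and FOS 1916_s_at at -1.23 stands to the left of it.

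Of the transcription factor genes, ETV5, an ETS factor of the PEA3 group, was higher in resistant cells. Its signals were 3418, 2686, 1819, 2589 and 2248 on resistant arrays, against 1026, 819, 291, 1587 and 1436 on sensitive arrays. The groups did not overlap, but the lowest resistant array, at 1819, was close to the highest sensitive array, at 1587, and the third sensitive array was below the background limit. The means were 2552 ± 591 and 1032 ± 516 (SD, n = 5 each), and the log2 difference was 1.35 (SE 0.36, 95% interval 0.57 to 2.12, limma adjusted p = 0.0387). This call was lost under 10 of 18 alternatives, at adjusted p-values of up to 0.0936: without sensitive replicate 1 or 2, without resistant replicate 1, 2, 4 or 5, with a smaller pseudocount, with a floor, and under both other scalings. The log2 difference stayed between 1.01 and 1.53 throughout.

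EGR1, the zinc finger factor that marks fresh ERK activation in many cells, was not called. Its signals were 311, 652, 958, 1111 and 854 on resistant arrays, against 1067, 892, 1146, 541 and 1026 on sensitive arrays. The first resistant array was just below the background limit. The log2 difference of -0.29 had a 95% interval of -0.94 to 0.36 (limma adjusted p = 0.704), which leaves out a rise of the size estimated for ETV5.

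FOS, a subunit of the AP-1 factor, gave different values in its 3 probe sets, and none of them was above the background limit on all 10 arrays. The probe set 1915_s_at had signals of 305, 476, 432, 530 and 553 on resistant arrays, 1 of them above the background limit, against 680, 494, 592, 607 and 745 on sensitive arrays, 4 of them above it. Its log2 difference was -0.37 (95% interval -0.78 to 0.03, limma adjusted p = 0.33). The probe set 1916_s_at had signals of 38, 188, 85, 133 and 161 on resistant arrays, against 340, 529, 350, 589 and 357 on sensitive arrays, and was called lower (log2 difference -1.23, SE 0.23, adjusted p = 0.00547). It was above the limit on 0 resistant and 2 sensitive arrays, so no fold is given. The probe set 2094_s_at did not exceed the limit on any array, with signals from 137 to 641 on resistant and from 136 to 253 on sensitive arrays, with a log2 difference of 0.31 (adjusted p = 0.654). The call for FOS thus rests on 1 of 3 probe sets, at signals near background.

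MAPK3, the kinase ERK1 itself, had the smallest log2 difference of the 12. Its signals were 2693, 2291, 2076, 2299 and 2376 on resistant arrays, against 2745, 2355, 1546, 2561 and 1843 on sensitive arrays. The resistant values lay within the range of the sensitive ones, and the log2 difference was 0.11 (95% interval -0.31 to 0.53, limma adjusted p = 0.855). That interval leaves out a change of 2-fold in either direction on this scale. The sign was negative when arrays were scaled to a common median (-0.02) and without sensitive replicate 3 (-0.01).

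A two-sided exact permutation test, run on each of the 12 probe sets, gave its smallest possible p of 0.00794 for DUSP6, ETV5 and FOS 1916_s_at. It gave 0.0159 for DUSP5, 0.0317 for FOS 1915_s_at and 0.0397 for SPRY1, and values from 0.0714 upward for the other 6. These p-values are not adjusted, and 3 of the 6 under the threshold, all with lower means in resistant cells, were not called over all probe sets.

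**Figure D3:**
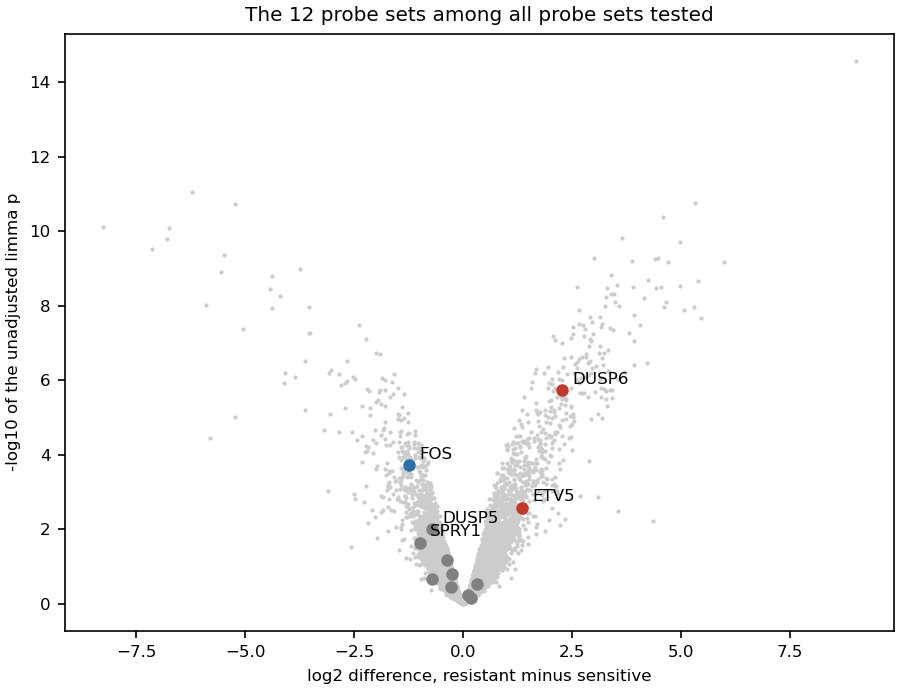
Log2 difference (resistant minus sensitive) against -log10 of the unadjusted limma p for all 12558 probe sets (light grey) and the 12 described here (large points, red called higher, blue called lower, dark grey not called). DUSP6 lies among the clearly changed probe sets, and most of the 12 lie in the mass near 0.

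Genes of the kinase cascade that leads to ERK were counted in the same way, and with so few genes the counts describe the listed genes only. Of 32 genes listed from adaptors to ribosomal S6 kinases and ternary complex factors, 25 were measured through their brightest probe set, and the other 7 were not analysed here. None was called higher, 1 was called lower and 24 were not called, against 4.94% higher and 3.46% lower among 8226 genes, and at an unadjusted p under 0.05 in limma 1 was higher and 3 were lower, against 11% higher and 8.44% lower among all genes. The gene called was HRAS, 1 of the RAS GTPases, at 806, 844, 836, 654 and 794 on resistant arrays, against 1390, 2521, 2259, 910 and 1601 on sensitive arrays. Its log2 difference was -0.96 (SE 0.25, limma adjusted p = 0.0363). Only 1 of its 2 probe sets was called, and that call was lost, at adjusted p-values of up to 0.0918, on leaving out any 1 array other than sensitive replicate 4. The MEK genes were not called: MAP2K1 had a log2 difference of -0.41 (95% interval -0.80 to -0.03, adjusted p = 0.237) and MAP2K2 one of 0.23 (-0.26 to 0.71, adjusted p = 0.685). The MAP2K1 groups did not overlap, with a highest resistant signal of 4726 and a lowest sensitive signal of 4855, whereas those of MAP2K2 overlapped. The median difference of the 25 genes was -0.16, against 0.03 for all genes. Of 9 measured genes of the parallel JNK and p38 cascades 0 were called in limma, and 0 were past an unadjusted p of 0.05, where all genes had the shares just given.

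Further dual-specificity phosphatases were measured for 8 of 11 listed genes, and 1 of the 8 was called, against 8.4% of all genes. DUSP4, a nuclear phosphatase that acts on ERK and is itself induced by it, had signals of 307, 978, 1142, 498 and 1024 on resistant arrays, against 51, 17, 38, 28 and 122 on sensitive arrays. It was above the background limit on 3 resistant and 0 sensitive arrays. It was at least 1.46-fold higher in resistant cells, a bound in which the sensitive arrays count at their background limit. The resistant arrays count at their own signal in it, also where that lies below the limit. The log2 difference of DUSP4 was 2.36 (SE 0.31, limma adjusted p = 0.000456). DUSP4 lies on chromosome 8, where 23.2% of 298 genes were called lower. DUSP7, a cytoplasmic ERK phosphatase of the DUSP6 type that is named here after its values were seen, had signals of 3836, 6397, 4890, 3342 and 4162 on resistant arrays, against 2912, 2509, 2467, 2115 and 3218 on sensitive arrays. The groups did not overlap, and the log2 difference of 0.73 (SE 0.21) was not called (limma adjusted p = 0.0582). These values are from the brighter of its 2 probe sets, and 0 of the 2 were called. The brighter one was called under 5 of 18 alternatives. The median difference of the 8 genes was 0.45.

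Other genes, listed here as ones that ERK signalling can induce, moved in both directions. Of 48 listed genes 42 were measured. In limma 9 were called higher, 3 were called lower and 30 were not called, against 4.94% higher and 3.46% lower among 8226 genes, and the median log2 difference was 0.24. This list, like the cascade and phosphatase lists above, was chosen with earlier results of these data known. The counts therefore describe the listed genes and are not a test of them as a set. Many of these genes also answer to other pathways, ID1 and ID3 to BMP signalling for example.

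**Figure D4:**
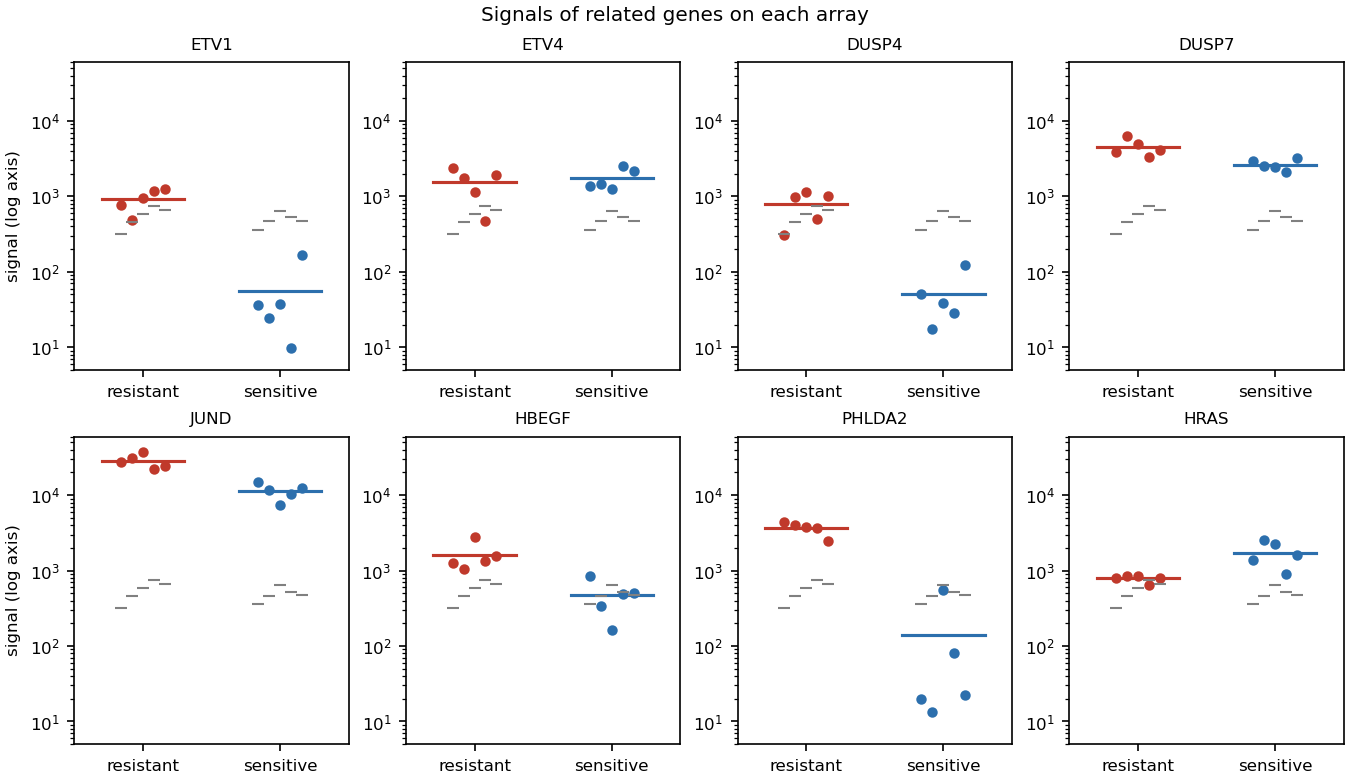
Signal (log axis) of 8 related genes, each by its brightest probe set, on the 5 resistant arrays (red, left) and the 5 sensitive arrays (blue, right), with group means as lines and each array's background limit as grey dashes. ETV1, DUSP4 and PHLDA2 lay at or below the limit on all sensitive arrays, HRAS was lower on every resistant array than on any sensitive array, and ETV4 overlapped fully.

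Of the 3 ETS factors of the PEA3 group, ETV5 and ETV1 were called and ETV4 was not. ETV1, called higher in both of its probe sets, had signals of 758, 485, 950, 1189 and 1249 on resistant arrays, all above the limit, against 36, 25, 38, 10 and 168 on sensitive arrays, none above it. It was at least 1.81-fold higher (log2 difference 2.62, SE 0.28, limma adjusted p = 9.16e-05). ETV4, named after its values were seen, had signals of 2382, 1730, 1137, 477 and 1920 on resistant arrays, against 1380, 1467, 1251, 2532 and 2170 on sensitive arrays. Its log2 difference was -0.30 (95% interval -1.10 to 0.50, adjusted p = 0.762), and it was 0.03 without resistant replicate 4. The intervals of ETV1 and ETV5 lay above that of ETV4.

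The largest rise in this list was that of PHLDA2, a small phosphoinositide-binding protein of imprinted growth control, at least 7.41-fold higher in resistant cells (3663 ± 737 against 139 ± 237, SD, n = 5 each). It was called in both of its probe sets. ID1 and ID3, which block basic helix-loop-helix factors, rose by 3.23 and 2.52 on the log2 scale, ID1 in all 3 of its probe sets. The kinase gene SGK1, above the background limit on 4 resistant and 0 sensitive arrays, was at least 1.78-fold higher by the bound used for DUSP4. HBEGF, a ligand of the EGF receptor, rose to 1599 ± 683 in resistant cells, against 468 ± 257 in sensitive cells (log2 difference 1.60, limma adjusted p = 0.0117). HBEGF was above the background limit on 5 resistant but only 2 sensitive arrays, so its sensitive mean lies near background. With the replicate number as a block its limma adjusted p was 0.0576. JUND, a partner of FOS in AP-1, rose by 1.32 and was called in 2 of its 3 probe sets, with signals of 28452 ± 6098 in resistant and 11416 ± 2755 in sensitive cells. The stress-induced gene IER3 rose by 1.07 (adjusted p = 0.0452, lost under 12 of 18 alternatives, at up to 0.117).

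KLF6, a zinc finger factor, fell to 2487 ± 311 in resistant cells, against 6114 ± 975 in sensitive cells (log2 difference -1.25, SE 0.18, limma adjusted p = 0.000698). TRIB1, a pseudokinase that binds MEK1, fell to 575 ± 359 in resistant cells, against 2168 ± 1439 in sensitive cells (log2 difference -1.71, adjusted p = 0.0382, lost under 10 of 18 alternatives, at up to 0.0888). Its signal was above the background limit on 3 resistant and 5 sensitive arrays. TRIB1 lies on chromosome 8, and the part of that chromosome's lowered signals in its value was not tested. IER3 lost its call without sensitive replicate 1, 2, 4 or 5 or resistant replicate 1, 2, 3 or 5, and TRIB1 without sensitive replicate 1, 2, 3 or 5 or resistant replicate 1, 3 or 4.

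The genes most like DUSP6 were ranked by Pearson's r of log2 signals over the 10 arrays, a measure that mostly reflects the difference between the 2 lines and is given as a description. The 5 highest were DLC1 (r = 0.969), TOMM70 of the mitochondrial import machinery, the chloride channel family gene CLIC5, SYPL1, and RRAS2, a RAS-related GTPase (r = 0.968 each). RRAS2 had signals of 1136 ± 161 in resistant and 87.9 ± 22.6 in sensitive cells (SD, n = 5 each). DLC1 had 3465 ± 591 and 99.6 ± 94.0, and CLIC5 had 1233 ± 364 and 92.3 ± 64.4. The sensitive means of RRAS2, DLC1 and CLIC5 lay below the background limit of every sensitive array (360.8 to 640), so no fold is given. Ranked by deviations from the group means, which leaves the line difference out, the 5 were SNAPC2, CFLAR, IGF2R, H1-10 and CEP57 (r = 0.932 to 0.899). They are the extremes of a search through all brighter probe sets on only 10 arrays, and are likewise given as a description. H1-10 was called lower in resistant cells (log2 difference -1.48, limma adjusted p = 0.000495), and the others were not called. No gene was on both lists.

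**Figure D5:**
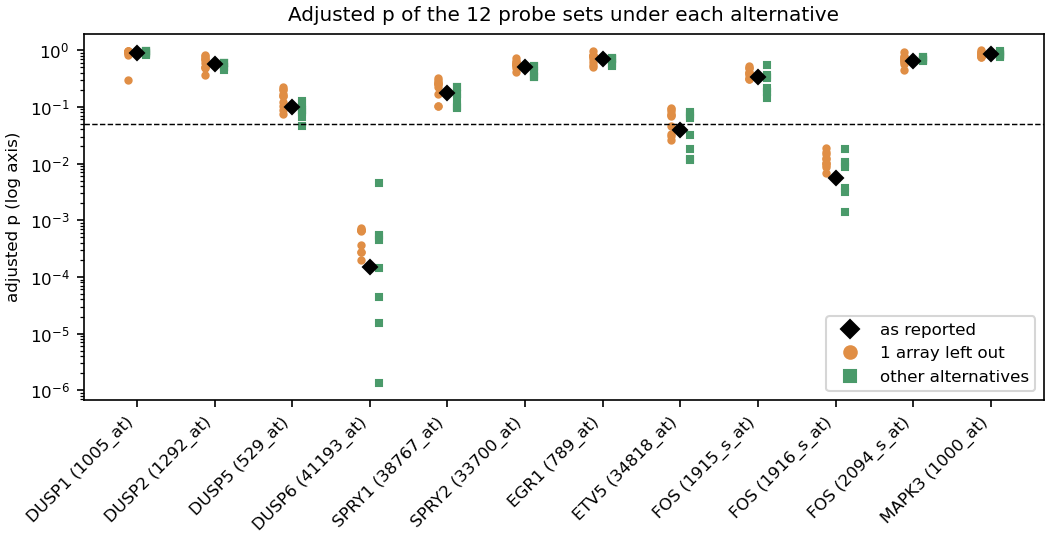
Benjamini-Hochberg adjusted p of each of the 12 probe sets from limma (log axis) as reported (black), with 1 array left out (orange) and under the other alternatives (green); the dashed line is the threshold of 0.05. DUSP6 and FOS 1916_s_at stay below the line, ETV5 lies on both sides of it, and DUSP5 crosses it once.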

How the data were processed

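The authors deposited 1 table of intensity values, a signal per probe set and array on a linear scale, made with MAS5 per the submitters' processing notes; its version and settings are not given in the sources. The arrays took biotinylated cRNA made from total RNA, per the labels' protocols, and groups come from the sample titles. The deposited values had a 2% trimmed mean of 2501.33 to 2501.51 on all 10 arrays, so they were already scaled. The array number limits precision.

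The 67 control probe sets were left out. Each array was scaled to the mean trimmed mean, and log2(signal + 114.8), the pseudocount being the 20th percentile of all signals, was fitted by limma 3.58.1 in R 4.3.3 (lmFit, eBayes, no covariate). Exact permutation tests used SciPy 1.17.1. The fit was tested on simulated data. Gene names came from the platform annotation, updated by Entrez identifier to the GRCh38.p14 gene table; 10943 had 1 symbol, 545 several and 1070 none. A listed gene was represented by its brightest probe set by mean log2 signal. Named were all members, up to 10 called genes per list by size of difference, MAP2K1 and MAP2K2, and the 5 genes most like DUSP6 by each measure. Members, lists and motifs were chosen with earlier results of these data known. Whether replicate numbers pair the arrays is not stated and could not be settled. Same-numbered deviations correlated weakly, at 0.009 to 0.123, and only resistant replicate 3 correlated best with its own number. Replicate 1 had the lowest background limit in both groups (319.7 resistant, 360.8 sensitive). The replicate block is therefore given as an alternative.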

Additional observations from a re-analysis of the deposited data

Results flagged for a closer look

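In each group of 5 arrays, a lowest or highest value of log2(signal + 114.8) that stood apart from the other 4 was looked for in the probe sets named by gene and in their close relatives. Of 60 such groups 3 had one, where chance gives about 1 in 20. HRAS was 654.4 on resistant replicate 4, against 793.8 to 844.3 on the other resistant arrays. ETV1 was 168.4 on sensitive replicate 5, against 9.8 to 37.6 on the other sensitive arrays, all of them below the background limit. PHLDA2 was 561.4 on sensitive replicate 3, against 13.3 to 79.9 on the other sensitive arrays, again all below the limit. On plain log2 signal, a scale tried after seeing the data, 2 groups had one, HRAS as above and DUSP1. DUSP1 was 135.6 on resistant replicate 4, against 954 to 1945.7 on the other resistant arrays, and without that array its log2 difference was 0.692 (limma adjusted p = 0.297).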

How the results depend on the processing

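Over all probe sets 931 were called, and between 794 and 1159 under the 8 alternatives that kept all arrays, or 691 to 860 with 1 array left out. The count of member probe sets called higher, 2 as reported, was 1 with a pseudocount 0.25 times as large, with a floor in place of the pseudocount, under quantile normalization and with scaling to a common median, and 1 to 2 with 1 array left out. ETV5 was the gene lost each time. The count called lower was 1 under every alternative that tested FOS 1916_s_at, with 1 to 1 when arrays were left out; with bright probe sets only, where that probe set was not tested, the 1 called was DUSP5. Cascade genes called numbered 1 as reported, 0 to 1 with 1 array left out and 0 with the mean of a gene's probe sets. Other ERK-induced genes called numbered 12, and 8 to 11 with 1 array left out. With the replicate number as a block, a pairing that the labels do not state, they numbered 8, and 794 probe sets were called in all. Of the other DUSP genes 1 was called as reported, and 2 with a pseudocount 4 times as large, with a floor, with bright probe sets only and with a variance trend, or 1 to 2 with 1 array left out. Signs turned for DUSP1 (-0.055 without sensitive replicate 2, -0.068 without resistant replicate 3, and -0.068 to 0.692 over all arrays left out in turn), MAPK3 (-0.02 with a common median, -0.007 without sensitive replicate 3, and -0.007 to 0.189 with arrays left out) and ETV4 (0.031 without resistant replicate 4, and -0.488 to 0.031 with arrays left out), none of them called under any setting. The cause of these changes was not tested. The median log2 difference of all probe sets was 0.029 as reported, -0.023 under quantile normalization and -0.071 with a common median. FOS lay near background, which limits what its 3 probe sets can show.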
